A study of Mus musculus with 38 samples.

Results

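Interleukin-2 (IL-2) and the 3 chains of its receptor were followed in mouse CD4+ T cells through 4 genes: Il2, Il2ra, Il2rb and Il2rg. They were taken by their gene symbols from the 24028 genes of the table of read counts, and all 4 were found. Il2 (Entrez Gene 16183) lies on chromosome 3 at 37120713 to 37125954 and Il2ra (16184) on chromosome 2 at 11642792 to 11693194. Il2rb (16185) lies on chromosome 15 at 78479256 to 78511621 and Il2rg (16186) on chromosome X at 101264385 to 101268255, all in GRCm38.p6. Values are for whole genes. All 4 members passed the filter on low counts that left 13650 genes in the tests, and Il2 passed it through its levels in stimulated cells.

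IL-2 is a growth and survival factor that T cells secrete once their antigen receptor and a costimulatory receptor such as CD28 are engaged. The alpha chain (Il2ra, CD25) raises the affinity of the receptor, the beta chain (Il2rb, CD122) is shared with the interleukin-15 receptor, and the common gamma chain (Il2rg, CD132) is shared with the receptors for interleukins 4, 7, 9, 15 and 21. The beta and gamma chains bind the kinases Jak1 and Jak3, which activate the transcription factor Stat5, and Il2ra is itself a textbook target of Stat5.

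The study set out 5 genotypes, each as naive cells and after 24 h of culture, in 38 libraries with 4 libraries per group and 3 for the rescue genotype. The groups were wild type (wt), a CD28-/- knockout, T1792delta/delta mice with CD4cre and loxP-flanked miR-17~92, T1792tg/tg mice with CD4cre and a miR-17~92 transgene that follows a loxP-flanked stop under a CAG promoter in Rosa26, and rescue mice that are CD28-/- and carry CD4cre with that transgene. CD4cre acts in the CD4 lineage, and it is shared by the T1792delta/delta, T1792tg/tg and rescue groups but not by wt or CD28-/-. No group carried Cre alone, so an effect of Cre or of a mouse line cannot be told apart from that of the named allele. Naive CD4+ T cells were isolated from spleen pooled with lymph nodes, each library from 1 mouse, male or female, with no ages given. Every 24 h culture, CD28-/- included, stood on antibody to CD3 (coated at 0.5 µg/ml) and to CD28 (0.2 µg/ml) with 50 U/ml of added IL-2, and no culture was left unstimulated. Responses at 24 h therefore include culture and added IL-2, and transcript levels do not report the IL-2 protein in the medium.

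Libraries held 19427291 to 24982429 counts in naive cells and 22267060 to 28020721 counts at 24 h. No naive or 24 h pair of replicates was identical or within counting noise: the chi-square per gene was 5.31 or more in all 54 pairs. In naive cells CD28-/- library 1 stood apart from the other 3 (38.2 to 45.2, against 5.64 to 27.8 among those 3), as did T1792tg/tg library 3 (42.5 to 46.5, against 11.7 to 31.1). Naive wt libraries 2 and 3 differed by 13.1 and libraries 1 and 4 by 21.5, against 36 to 47.6 between these pairs. Naive rescue libraries 2 and 3 differed by 49.6 while each differed from library 1 by 19 and 19.8. Values without CD28-/- 1 and rescue 2 are given below, and those without each single library in the closing section. The 10 CD4 T cell marker genes were detected in all groups, and they summed to 6806 to 7916 CPM in naive libraries and to 3683 to 5509 CPM at 24 h. CPM are counts scaled to the library total with TMM factors, and errors on levels are SD between libraries. All levels are therefore relative to the library, and RNA per cell was not measured. Cd28 counts did not separate the knockout, at 737 ± 135 CPM (SD, n = 4) in naive libraries labelled CD28-/- against 825 ± 86.8 in wt (n = 4), and 539 ± 40.4 against 342 ± 35.5 at 24 h. These counts cover the whole gene, so they do not check a deletion of part of it, and the genotype is given below as labelled. Mir17hg, the host gene of miR-17~92, stood at 172 ± 11.8 CPM in T1792delta/delta at 24 h against 20.7 ± 2.44 in wt, and at 54.4 ± 7.88 against 51.6 ± 7.25 in naive cells (n = 4 each). Its counts thus do not check the loss of the miRNAs, and this genotype too is given as labelled.

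The mature miRNAs of the locus that the transgene and the loxP-flanked allele concern are shown first, with 1 per seed family. They are RefSeq sequences placed in GRCm38.p6 on the plus strand of chromosome 14, and capitals mark the seed, bases 2 to 8, which pairs with target transcripts.
mmu-miR-17-5p: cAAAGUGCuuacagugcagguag
mmu-miR-18a-5p: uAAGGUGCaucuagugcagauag
mmu-miR-19a-3p: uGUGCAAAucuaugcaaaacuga
mmu-miR-92a-3p: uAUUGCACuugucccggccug
miR-20a-5p has the seed of miR-17-5p, and miR-19b-3p that of miR-19a-3p. None of these 4 seeds had a full 7-base match on the transcript strand (GCACTTT for miR-17-5p, GCACCTT for miR-18a-5p, TTTGCAC for miR-19a-3p and GTGCAAT for miR-92a-3p) in the 3′ untranslated regions of the 4 members, taking the longest that GENCODE annotates for each gene. They are 581 bases long in Il2, 3411 in Il2ra, 2220 in Il2rb and 474 in Il2rg. Among 20831 genes with a 3′ untranslated region (median 976 bases), 11.9% held a miR-17 match, 7.89% a miR-18a match, 11.6% a miR-19 match and 6.62% a miR-92a match. The AU-rich pentamer ATTTA, a motif of short-lived cytokine transcripts, occurred 7 times in Il2, 4 times in Il2ra, 2 times in Il2rb and not in Il2rg, and 65.8% of genes held at least 1. A missing match says only that these letters are not in these regions.

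The start-proximal promoters of Il2 and Il2ra are shown because both genes rose in every genotype and then differed in how their levels followed the genotypes. Each window runs from 250 bases before to 50 after the RefSeq start in GRCm38.p6, written along the gene's own strand, and capitals mark GGAAA, the core recognised by NFAT factors, or its reverse complement.
Il2, chr3:37125905-37126204, minus strand: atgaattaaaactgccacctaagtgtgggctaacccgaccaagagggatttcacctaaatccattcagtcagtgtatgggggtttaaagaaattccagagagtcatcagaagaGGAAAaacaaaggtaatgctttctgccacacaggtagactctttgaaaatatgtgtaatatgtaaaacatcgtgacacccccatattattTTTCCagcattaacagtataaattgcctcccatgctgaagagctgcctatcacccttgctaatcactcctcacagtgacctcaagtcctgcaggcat
Il2ra, chr2:11642542-11642841, plus strand: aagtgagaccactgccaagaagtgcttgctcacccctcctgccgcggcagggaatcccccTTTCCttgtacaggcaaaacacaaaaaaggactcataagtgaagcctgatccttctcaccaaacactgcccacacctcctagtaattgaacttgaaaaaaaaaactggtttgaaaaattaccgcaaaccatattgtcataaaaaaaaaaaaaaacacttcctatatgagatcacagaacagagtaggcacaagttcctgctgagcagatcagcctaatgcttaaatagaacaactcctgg
Both strands were searched. GGAAA begins 137 and 47 bases before the Il2 start and 190 before the Il2ra start. Of 32851 promoter windows, 61.3% held at least 1 match and 26.7% at least 2. The NF-kB pattern matched at 224 bases before the Il2 start. Before the Il2ra start it matched at 201 and 200 bases, on opposite strands and overlapping each other. At least 1 match was held by 50.8% of windows, and at least 2 by 27.4%. The AP-1 pattern TGANTCA (7.81% of windows) and the STAT pattern TTCNNNGAA (8.3%) had no match in either window. These are matches of letters and not measured binding sites.

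After 24 h of stimulation, the relative levels of Il2, Il2ra and Il2rb rose and that of Il2rg fell in all 5 genotypes. The calls were thus the same in every genotype and the sizes were not. The tests are edgeR's quasi-likelihood tests over all 38 libraries with Benjamini-Hochberg adjustment over 13650 genes, called at an adjusted p under 0.05, and errors on log2 fold changes are standard errors. Being called was common, since 85.2% of tested genes were called in wt, 80.9% in CD28-/-, 85.1% in T1792delta/delta, 85.1% in T1792tg/tg and 79.7% in rescue, so 4 of 4 members is close to the background. Because these comparisons, and those with wt below, share libraries, their values stand side by side and are not independent of each other.

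Il2 was close to undetected in naive cells, with 0 to 9 reads per library and 0 reads in 2 of 19. At 24 h the wt libraries reached 125, 159, 155 and 183 CPM. T1792delta/delta libraries held 130, 99.3, 139 and 144 CPM, and T1792tg/tg libraries 190, 170, 236 and 264 CPM. These groups lie near each other, with T1792tg/tg at the top and T1792delta/delta overlapping wt. The libraries labelled CD28-/- held 7.07, 6.43, 7.51 and 6.83 CPM, and the rescue libraries 8.71, 20.5 and 14.2 CPM. Both CD28-deficient groups thus sit far below the other 3 at 24 h, without overlap, and every rescue library lies above every CD28-/- library. The order of the means was T1792tg/tg (215 ± 42.5), wt (155 ± 23.7), T1792delta/delta (128 ± 20), rescue (14.5 ± 5.88) and CD28-/- (6.96 ± 0.454 CPM; SD, n = 4 or 3).

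Against wt at 24 h, all 4 members were called in CD28-/-, where 51.5% of tested genes were called. Il2 was 22.3-fold lower (log2 fold change -4.48 ± 0.20, adjusted p = 8.58e-19). It still rose from naive to 24 h in CD28-/- by 6.79 ± 0.48 on the log2 scale (adjusted p = 3.06e-15), against 9.39 ± 0.30 in wt. The difference between these responses, -2.60 ± 1.49, did not pass the test (adjusted p = 0.164, 95% interval -5.62 to 0.43). Its error and interval are rough, since the 4 naive CD28-/- libraries held 5 Il2 reads in all and the 4 naive wt libraries 20. DESeq2 did call this difference (-2.52 ± 0.79, adjusted p = 0.00474), as did a fit on these 4 groups alone (adjusted p = 0.0311) and one with a replicate block within genotype (-2.59 ± 1.04, adjusted p = 0.0481). In the rescue group Il2 was 2.07-fold higher than in CD28-/- (1.05 ± 0.20, adjusted p = 0.000271), 10.8-fold lower than in wt (-3.43 ± 0.20, adjusted p = 7.54e-15) and 14.9-fold lower than in T1792tg/tg (-3.90 ± 0.21, adjusted p = 2.31e-16). Without CD28, the transgene thus went with a higher Il2 level that remained 10.8-fold under wt.

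With CD28 present, Il2 differed by up to 1.68-fold between the groups that differ in miR-17~92. It was 1.38-fold higher in T1792tg/tg than in wt (0.47 ± 0.16, adjusted p = 0.0496), a call at the threshold that was lost when any of 5 of the 8 libraries was left out (T1792tg/tg 3 or 4, wt 1, 2 or 3; adjusted p up to 0.243). In T1792delta/delta it did not pass the test (-0.28 ± 0.16, adjusted p = 0.239, 95% interval -0.61 to 0.04). The comparison of T1792tg/tg with T1792delta/delta did pass, at 1.68-fold higher (0.75 ± 0.16, adjusted p = 0.000386). The transgene effect on Il2 without CD28 minus that with CD28 was 0.59 ± 0.26 and was not called (adjusted p = 0.291, 95% interval 0.06 to 1.11).

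**Figure D1:**
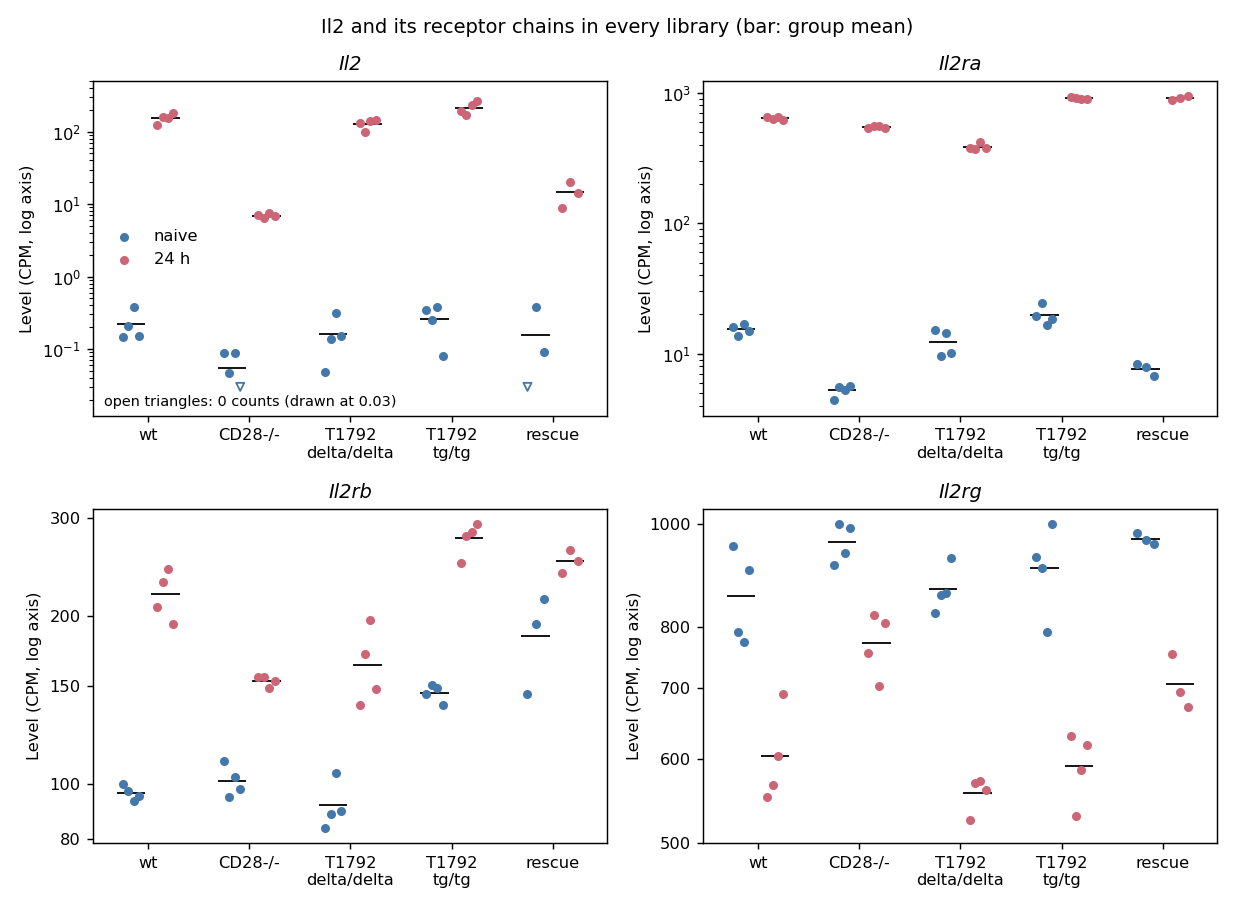
Level of each gene in every library in CPM (log axis), by genotype, naive in blue and 24 h in red, with a bar at the group mean. Il2 at 24 h is 6.43 to 7.51 CPM in CD28-/- and 125 to 183 CPM in wt, Il2ra at 24 h is highest in T1792tg/tg and rescue, and Il2rg is lower at 24 h than in naive cells in all 5 genotypes.

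Il2ra, the alpha chain, followed another order than Il2. At 24 h the wt libraries held 651, 634, 655 and 624 CPM and those labelled CD28-/- 537, 557, 552 and 537 CPM. T1792delta/delta libraries held 380, 371, 418 and 380 CPM. The T1792tg/tg libraries held 931, 920, 904 and 902 CPM and the rescue libraries 878, 920 and 941 CPM. T1792tg/tg and rescue overlap fully at the top, wt, CD28-/- and T1792delta/delta follow in that order, and no libraries of these last 3 groups overlap. The gap between CD28-/- and T1792delta/delta was not tested.

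Relative to wt, Il2ra was 1.65-fold lower in T1792delta/delta (-0.73 ± 0.10, adjusted p = 1.78e-06) and 1.43-fold higher in T1792tg/tg (0.51 ± 0.10, adjusted p = 0.000361) at 24 h. It was 1.67-fold higher in rescue than in CD28-/- (0.74 ± 0.10, adjusted p = 2.11e-06) and 1.43-fold higher than in wt (0.51 ± 0.10, adjusted p = 0.000203). Rescue and T1792tg/tg differed by 0.00 ± 0.10 on the log2 scale, with a 95% interval of -0.21 to 0.21, although their Il2 levels differed 14.9-fold. CD28-/- was 1.17-fold lower than wt (-0.23 ± 0.10, adjusted p = 0.0424), and this call was lost when any 1 of the 8 libraries was left out (adjusted p 0.0523 to 0.0835). A 22.3-fold lower Il2 thus stood beside a small difference in Il2ra, in cultures that all received IL-2.

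Of the 4 members, 2 were called in T1792delta/delta against wt (Il2ra and Il2rb, both lower), where 16.2% of tested genes were called. In T1792tg/tg, 3 were called (Il2, Il2ra and Il2rb, all higher), with 12.5% of tested genes called. Rescue against CD28-/- called the same 3 higher, with 18.4% called, and T1792tg/tg against T1792delta/delta likewise, with 33.9% called. Rescue against wt called 3 members (Il2 lower, Il2ra and Il2rg higher; 35.1% of tested genes), and rescue against T1792tg/tg called 2 (Il2 lower, Il2rg higher; 32.4%). In T1792delta/delta, T1792tg/tg and rescue against CD28-/-, the called members were the alpha and beta chains with or without the cytokine, and Il2rg was not called.

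Naive Il2ra was low and already differed between genotypes. Naive wt libraries held 16.1, 13.7, 16.8 and 15 CPM, and those labelled CD28-/- 4.38, 5.59, 5.25 and 5.69 CPM. The rescue libraries held 8.39, 7.93 and 6.77 CPM. T1792delta/delta (15.1, 9.66, 14.5 and 10.1) overlapped wt, and T1792tg/tg (19.4, 24.6, 16.5 and 18.5 CPM) touched its upper end. The 2 CD28-deficient groups lay below the others without overlap. Il2ra was 2.95-fold lower in CD28-/- than in wt (-1.56 ± 0.12, adjusted p = 2.78e-11) and -1.48 ± 0.13 without naive CD28-/- 1 and rescue 2. It was the 1 member called in that comparison, with 14.8% of tested genes called. Rescue was 1.47-fold higher than CD28-/- (0.56 ± 0.13, adjusted p = 0.00327) and 2-fold lower than wt (adjusted p = 3.29e-07). Without naive CD28-/- 1 and rescue 2 the rescue difference from CD28-/- was 0.46 ± 0.16 (adjusted p = 0.0475), and in a fit on these 2 groups alone the call was lost (0.57 ± 0.16, adjusted p = 0.0587). T1792tg/tg was 1.28-fold higher than wt (0.36 ± 0.11, adjusted p = 0.0128), a call lost without T1792tg/tg 2 or wt 2 (adjusted p up to 0.103), and T1792delta/delta did not pass (-0.32 ± 0.11, adjusted p = 0.0869, 95% interval -0.54 to -0.10).

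Regulatory T cells carry Il2ra at rest, so their markers are given beside naive Il2ra. Foxp3, the lineage factor of regulatory T cells, was at 21.7 ± 1.63 CPM in naive wt, 4.63 ± 0.832 in CD28-/- (-2.23 ± 0.20, adjusted p = 1.09e-09), 5.65 ± 0.352 in rescue, 20.9 ± 2.4 in T1792delta/delta and 27.3 ± 4.38 in T1792tg/tg. Of the 12 regulatory T cell genes, 7 were lower and 1 higher in naive CD28-/- than in wt (7.34% and 7.42% of tested genes), with a median log2 fold change of -0.44 beside 0.00 over all tested genes. Lrrc32, which anchors latent TGF-beta on these cells, was lower as well (-2.94 ± 0.18, adjusted p = 3.15e-14). The list summed to 479 to 514 CPM in naive wt, 384 to 400 in CD28-/-, 405 to 472 in rescue, 481 to 548 in T1792delta/delta and 547 to 695 in T1792tg/tg, with none of the 12 genes at 0. Its part in the naive Il2ra difference was not tested, and in bulk libraries fewer cells of a type and less RNA per cell cannot be told apart. At 24 h Foxp3 was at 9.42 ± 0.88 CPM in wt, 5.97 ± 1.16 in CD28-/-, 9.36 ± 1.57 in T1792delta/delta, 6.47 ± 2.23 in T1792tg/tg and 3.74 ± 1.4 in rescue. The list then summed to 940 to 1026 CPM in wt, 863 to 971 in CD28-/-, 941 to 1113 in T1792delta/delta, 823 to 885 in T1792tg/tg and 798 to 880 in rescue.

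Il2ra rose in every genotype from these levels: by 5.38 ± 0.12 on the log2 scale in wt (41.6-fold), 6.71 ± 0.13 in CD28-/- (105-fold), 4.97 ± 0.12 in T1792delta/delta (31.4-fold), 5.53 ± 0.12 in T1792tg/tg (46.2-fold) and 6.89 ± 0.15 in rescue (119-fold). The response was larger in CD28-/- than in wt by 1.33 ± 0.15 (adjusted p = 1.44e-08), with 2 of 4 members and 43.3% of tested genes called in that comparison of responses. That difference came with a 2.95-fold lower naive level and a 1.17-fold lower level at 24 h. The response in T1792delta/delta was -0.41 ± 0.15 below that of wt without passing the test (adjusted p = 0.0877, 95% interval -0.71 to -0.11). No member was called among the response differences of T1792delta/delta with wt (6.1% of tested genes called), T1792tg/tg with wt (16%) or rescue with CD28-/- (12.8%), and unadjusted p-values under 0.05 were found only for Il2ra (0.0086) and Il2rb (0.0139) in T1792delta/delta.

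**Figure D2:**
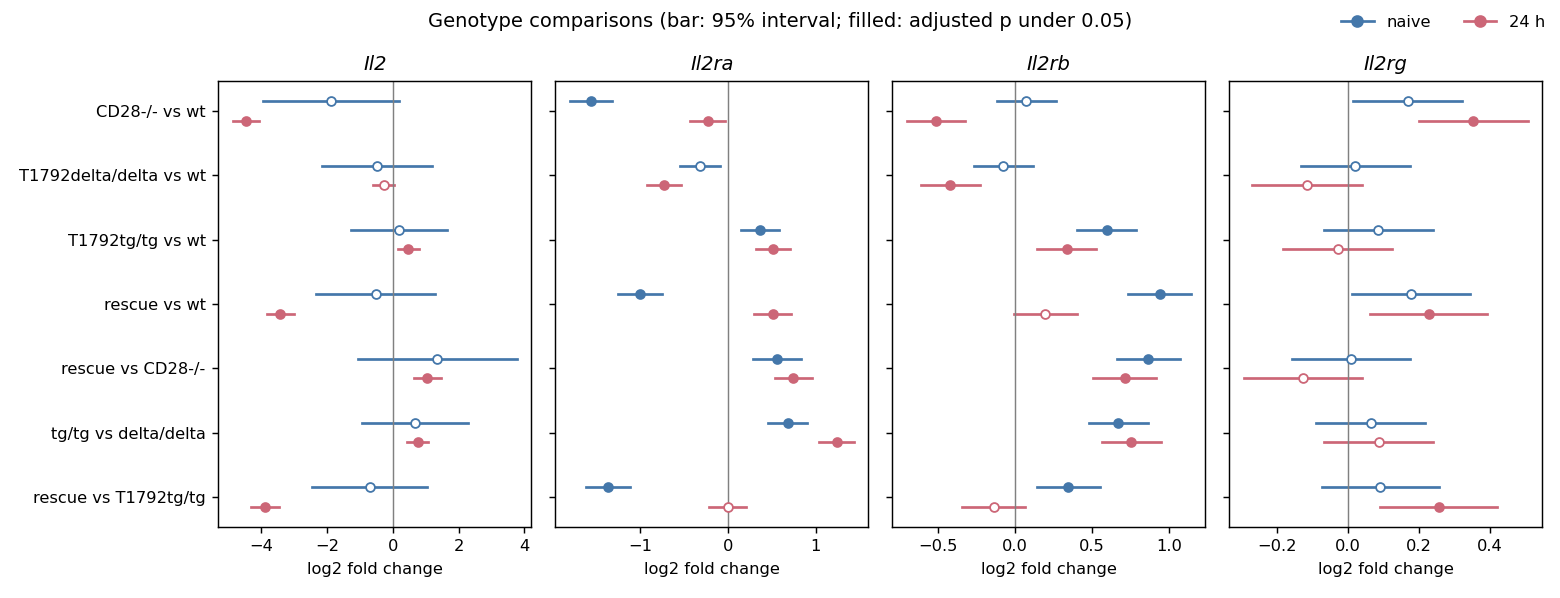
Log2 fold change of each gene in 7 genotype comparisons, naive in blue and 24 h in red, with 95% intervals; filled points have an adjusted p under 0.05 and the horizontal scales differ between panels. Il2 stands at -4.48 in CD28-/- against wt at 24 h, while Il2ra in rescue against T1792tg/tg stands at 0.00 at 24 h and at -1.36 in naive cells.

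Il2rb, the beta chain, was higher with the transgene in both states. Naive wt libraries held 100, 97.2, 93.6 and 95.4 CPM, against 145, 151, 149 and 139 CPM in T1792tg/tg. The rescue libraries held 145, 194 and 215 CPM. No wt library reached the lowest library of either transgenic group. Naive CD28-/- libraries held 110, 95.1, 103 and 98.1 CPM and T1792delta/delta 83.5, 88.7, 105 and 89.7 CPM, both overlapping wt. In naive cells Il2rb was 1.51-fold higher in T1792tg/tg than in wt (0.59 ± 0.09, adjusted p = 1.92e-05). It was 1.82-fold higher in rescue than in CD28-/- (0.86 ± 0.10, adjusted p = 2.21e-07), and 1.91-fold higher than in wt (0.94 ± 0.10, adjusted p = 1.92e-08). The call of rescue over T1792tg/tg (0.34 ± 0.10, adjusted p = 0.0302) was lost without T1792tg/tg 4, rescue 2 or rescue 3 (adjusted p up to 0.187).

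In these naive comparisons 2 of 4 members were called each time: Il2ra and Il2rb higher in T1792tg/tg against wt (23.1% of tested genes called), Il2ra lower and Il2rb higher in rescue against wt (26.1%), and both higher in rescue against CD28-/- (16.8%). Both were also higher in T1792tg/tg against T1792delta/delta (31.2%), and rescue against T1792tg/tg called Il2ra lower and Il2rb higher (7.89%). No member was called in naive T1792delta/delta against wt (5.19% of tested genes). There the test gave 1 unadjusted p under 0.05, that of Il2ra, and DESeq2 gave an adjusted p of 0.0481 for it.

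At 24 h Il2rb reached 208, 231, 243 and 194 CPM in wt, 156, 156, 149 and 153 in CD28-/-, 139, 171, 197 and 148 in T1792delta/delta, 249, 279, 283 and 293 in T1792tg/tg and 239, 263 and 251 in rescue. By the means the order was T1792tg/tg, rescue, wt, T1792delta/delta and CD28-/-, where rescue overlaps wt and T1792tg/tg, and T1792delta/delta overlaps wt and CD28-/-. Il2rb was 1.43-fold lower in CD28-/- than in wt (-0.51 ± 0.09, adjusted p = 2.03e-05) and 1.34-fold lower in T1792delta/delta (-0.42 ± 0.09, adjusted p = 0.00187). It was 1.26-fold higher in T1792tg/tg (0.33 ± 0.09, adjusted p = 0.0146), a call lost without T1792tg/tg 4, wt 1 or wt 4 (adjusted p up to 0.0716). Rescue was 1.64-fold higher than CD28-/- (0.71 ± 0.10, adjusted p = 2.73e-06), and neither its difference from wt (0.20 ± 0.10, adjusted p = 0.128, 95% interval -0.01 to 0.40) nor that from T1792tg/tg (-0.14 ± 0.10, adjusted p = 0.316) passed.

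The rise of Il2rb on stimulation was 2.27-fold in wt (1.18 ± 0.10), 1.51-fold in CD28-/- (0.59 ± 0.09), 1.78-fold in T1792delta/delta (0.84 ± 0.10), 1.89-fold in T1792tg/tg (0.92 ± 0.09) and 1.36-fold in rescue (0.44 ± 0.11). In CD28-/- it was smaller than in wt by 0.59 ± 0.13 (adjusted p = 0.000496). The transgene effect at 24 h without CD28 exceeded that with CD28 by 0.38 ± 0.14 without passing (adjusted p = 0.16, 95% interval 0.10 to 0.65). None of the 4 members was called in that last comparison, in which 2.11% of tested genes were, while 2 (Il2 and Il2rb) had an unadjusted p under 0.05 and DESeq2 called none. A fit on the compared groups alone did call Il2ra (0.21, adjusted p = 0.0296) and Il2rb (0.35, adjusted p = 0.0304), and without rescue 1 at 24 h Il2 was called (adjusted p = 0.0413).

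Il2rb is also carried by natural killer cells and by memory and CD8 T cells, so their markers are given beside it. The 12 natural killer and CD8 T cell genes summed to 153 to 161 CPM in naive wt, 158 to 214 in CD28-/-, 165 to 242 in T1792delta/delta, 171 to 292 in T1792tg/tg and 199 to 233 in rescue. At 24 h they summed to 40.9 to 55.6 CPM in wt, 37.8 to 39.3 in CD28-/-, 30.1 to 48.9 in T1792delta/delta, 67.3 to 88.3 in T1792tg/tg and 67.3 to 80.7 in rescue. No gene of that list was at 0 in a whole group. In naive T1792tg/tg against wt, 5 of the 12 were higher and none lower (10.5% and 12.6% of tested genes). In naive rescue against wt 3 were higher and 2 lower (26.1% of tested genes called in either direction). Eomes, a T-box factor of effector and memory lymphocytes, was at 8.45 ± 0.557 CPM in naive wt, 23 ± 6.08 in T1792tg/tg and 18 ± 2.64 in rescue. In the same order Ncr1, a natural killer receptor, was at 2.6 ± 0.62, 2.93 ± 1.31 and 1.15 ± 0.679 CPM and Cd8a at 12 ± 3.64, 16.6 ± 4.39 and 18.6 ± 3.38 CPM. These 3 genes were picked from the list after their values were seen, and they do not stand for the rest of it. The 14 memory CD4 T cell genes summed to 337 to 364 CPM in naive wt, 321 to 352 in CD28-/-, 372 to 378 in T1792delta/delta, 381 to 452 in T1792tg/tg and 321 to 401 in rescue. Against naive wt, 8 of them were higher and 1 lower in T1792tg/tg (10.5% and 12.6% of tested genes), and 1 higher and 1 lower in rescue (26.1% called in either direction). At 24 h they summed to 466 to 532 CPM in wt, 232 to 247 in CD28-/-, 365 to 454 in T1792delta/delta, 829 to 859 in T1792tg/tg and 358 to 524 in rescue. The part of these cells in the Il2rb and Il2ra levels was not tested.

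Il2rg, the common gamma chain, had the narrowest range and ran the other way. Naive wt libraries held 952, 790, 773 and 904 CPM, those labelled CD28-/- 915, 999, 939 and 991, T1792delta/delta 823, 857, 861 and 928, and rescue 979, 966 and 956 CPM. Naive T1792tg/tg libraries ran from 790 to 1000 CPM. At 24 h the values were 553, 567, 604 and 691 CPM in wt, 755, 821, 704 and 807 in CD28-/-, 526, 570, 572 and 561 in T1792delta/delta, 631, 531, 586 and 619 in T1792tg/tg and 754, 694 and 672 in rescue. In each genotype every 24 h library lay below every naive library, and at 24 h the CD28-/- libraries lay above those of wt, T1792delta/delta and T1792tg/tg.

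Il2rg fell 1.42-fold in wt (-0.50 ± 0.08, adjusted p = 2.5e-07), 1.25-fold in CD28-/- (-0.32 ± 0.08), 1.56-fold in T1792delta/delta (-0.64 ± 0.08), 1.53-fold in T1792tg/tg (-0.62 ± 0.08) and 1.37-fold in rescue (-0.45 ± 0.09). Against wt at 24 h it was 1.28-fold higher in CD28-/- (0.35 ± 0.08, adjusted p = 0.000188). In rescue it was 1.17-fold higher (0.23 ± 0.08, adjusted p = 0.0283), a call lost without rescue 1, rescue 2, wt 1 or wt 2 (adjusted p up to 0.166). Rescue over T1792tg/tg (0.26 ± 0.08, adjusted p = 0.0148) was lost without rescue 1 or T1792tg/tg 2 (adjusted p up to 0.109). It was not called in T1792delta/delta (-0.12 ± 0.08, 95% interval -0.27 to 0.04), T1792tg/tg (-0.03 ± 0.08, -0.18 to 0.13) or rescue against CD28-/- (-0.13 ± 0.08, -0.29 to 0.04). No naive genotype comparison called it. Il2rg lies on chromosome X, and a term for the sex of the mouse changed no call on it.

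Levels of different genes were compared per length, as RPKM from the deposited length of each gene (CPM per kilobase). In naive wt Il2rg stood at 367 ± 37.5 RPKM, Il2rb at 35.9 ± 1.09, Il2ra at 2.95 ± 0.264 and Il2 at 0.233 ± 0.113 (SD, n = 4). This order held for the means of all 5 naive groups. At 24 h in wt Il2rg stood at 259 ± 26.6 RPKM, Il2 at 164 ± 25, Il2ra at 123 ± 2.78 and Il2rb at 81.2 ± 8.24. Among the receptor chains, Il2rg remained the most abundant per length in every group, while Il2ra passed Il2rb at 24 h in all 5 genotypes.

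The ratio of Il2ra to Il2rb per length went from 0.0822 ± 0.0083 in naive wt to 1.52 ± 0.137 at 24 h. In naive CD28-/- it was 0.0268 ± 0.00456 and in naive rescue 0.0224 ± 0.00688. At 24 h it was 1.84 ± 0.0616 in CD28-/-, 1.24 ± 0.153 in T1792delta/delta, 1.72 ± 0.149 in T1792tg/tg and 1.88 ± 0.0649 in rescue. The 2 CD28-deficient groups thus had the lowest naive means of this ratio and the highest at 24 h, where CD28-/- (1.77 to 1.92) and rescue (1.81 to 1.93) overlapped T1792tg/tg (1.59 to 1.93). The ratio of Il2ra to Il2rg at 24 h was 0.316 ± 0.0237 in CD28-/-, 0.31 ± 0.0169 in T1792delta/delta, 0.477 ± 0.0526 in wt, 0.578 ± 0.0538 in rescue and 0.691 ± 0.0561 in T1792tg/tg, so that on this scale CD28-/- and T1792delta/delta overlapped.

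**Figure D3:**
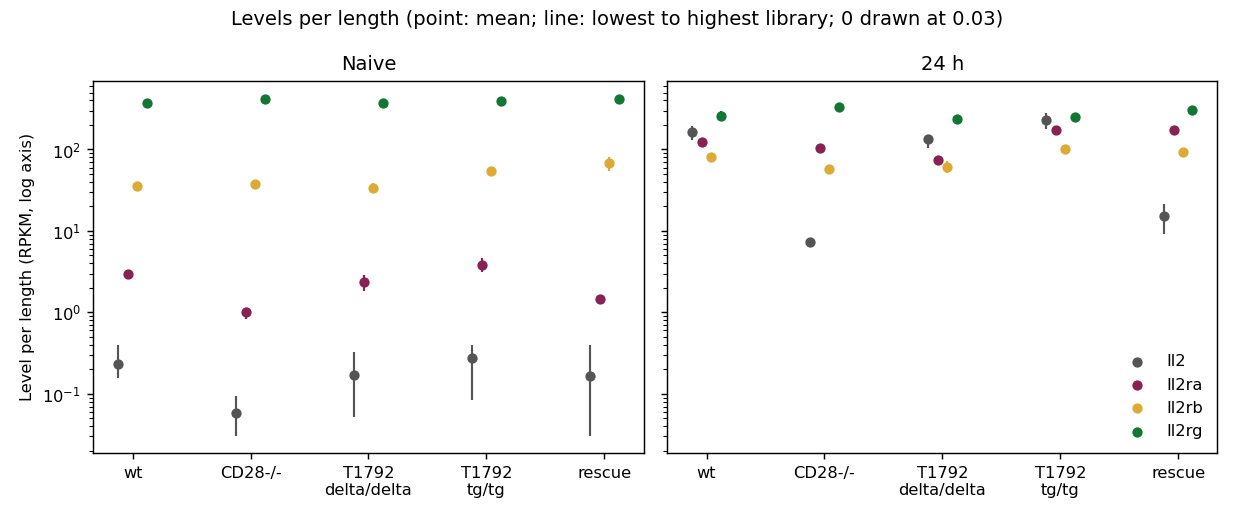
Level per length in RPKM (log axis) of the 4 genes by genotype, with the mean as a point and a line from the lowest to the highest library; libraries with 0 reads are drawn at 0.03. Il2rg is the highest receptor chain in both states, Il2ra lies under Il2rb in naive cells and over it at 24 h, and Il2 at 24 h drops from 164 RPKM in wt to 7.36 in CD28-/-.

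Around the 4 genes, 30 genes of IL-2 signalling were counted, feedback inhibitors such as Cish among them. Counts over this list thus do not give a direction for the signal. In wt, 10 rose and 16 fell on stimulation (median log2 fold change -0.27, against -0.06 over all tested genes, of which 41.3% rose and 43.9% fell). Bcl2l1, which encodes the survival protein Bcl-xL, rose from 20.5 to 298 CPM (3.86 ± 0.09, adjusted p = 3.79e-29), and the kinase gene Pim2 from 45.1 to 504 CPM (3.48 ± 0.09, adjusted p = 4.3e-28). Jak1, the kinase bound by the beta chain, fell from 1610 to 295 CPM (-2.45 ± 0.07, adjusted p = 8.33e-27).

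In CD28-/- against wt at 24 h, 9 of the 30 were higher and 14 lower (median -0.20, against -0.03 over all tested genes, of which 23.7% were higher and 27.8% lower). Bcl2l1 was lower, at 128 against 298 CPM (-1.22 ± 0.08, adjusted p = 8.2e-15), as was the cyclin gene Ccnd3 (-0.85 ± 0.06, adjusted p = 2.08e-13), and Jak1 was higher (0.76 ± 0.07, adjusted p = 9.49e-12). In T1792delta/delta 1 was higher and 12 lower (median -0.14, against 0.00, with 7.77% of tested genes higher and 8.47% lower). Pim2 was at 288 against 504 CPM (-0.81 ± 0.08, adjusted p = 8.55e-09), and Lta, which encodes lymphotoxin alpha, at 49 against 102 CPM (-1.06 ± 0.12, adjusted p = 1.11e-07).

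In T1792tg/tg 8 were higher and 1 lower (median 0.14, against -0.01, with 6.1% of tested genes higher and 6.45% lower). Lta stood at 200 against 102 CPM (0.97 ± 0.12, adjusted p = 6.28e-07), the granzyme gene Gzmb at 130 against 55.6 CPM (1.23 ± 0.24, adjusted p = 0.000608), and Stat5a at 271 against 200 CPM (0.44 ± 0.10, adjusted p = 0.00198). In rescue against CD28-/- 13 were higher and 4 lower (median 0.20, against 0.01, with 9.52% of tested genes higher and 8.86% lower), with Gzmb at 90 against 17 CPM (2.40 ± 0.27, adjusted p = 3.55e-08), Lta at 107 against 51.3 CPM (1.06 ± 0.13, adjusted p = 1.8e-07) and Bcl2l1 at 199 against 128 CPM (0.64 ± 0.08, adjusted p = 6.12e-07). Lta was thus lower in T1792delta/delta, and higher with the transgene both with and without CD28. In naive CD28-/- none of the 30 was higher and 10 were lower than in wt (median -0.19, against 0.00, with 7.42% of tested genes higher and 7.34% lower). Among the lower were Myc (-0.83 ± 0.09), Jak3 (-0.68 ± 0.08) and Cish (-1.02 ± 0.18), a feedback inhibitor induced by Stat5 (adjusted p = 8.36e-08, 7.48e-07 and 0.000186).

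The gamma chain family list held 12 cytokine and receptor genes, and 9 could be tested. Crlf2, counted among these 9, encodes a receptor chain that does not pair with Il2rg. It was among the genes called higher in CD28-/- than in wt at 24 h (0.74 ± 0.16, adjusted p = 0.000231). In wt 2 of the 9 rose and 5 fell on stimulation (41.3% and 43.9% of tested genes). Il15ra, the alpha chain that presents interleukin-15 to Il2rb and Il2rg, rose from 6.86 to 35.3 CPM (2.36 ± 0.13, adjusted p = 1.2e-18), and Il7r, the interleukin-7 receptor chain of resting T cells, fell from 470 to 7.67 CPM (-5.93 ± 0.22, adjusted p = 1.01e-23). At 24 h 4 were higher and 2 lower in CD28-/- than in wt (23.7% and 27.8% of tested genes), with Il7r higher (39.7 against 7.67 CPM, 2.37 ± 0.19, adjusted p = 2.9e-12) and Il15ra lower (16.6 against 35.3 CPM, -1.09 ± 0.12, adjusted p = 1.8e-09). In rescue Il15ra stood at 31.9 CPM, higher than in CD28-/- (0.95 ± 0.13, adjusted p = 1.03e-06), and 3 of the 9 were higher and 2 lower (9.52% and 8.86% of tested genes). T1792delta/delta had none higher and 3 lower (7.77% and 8.47%), with Il4ra at 146 against 191 CPM (-0.39 ± 0.10, adjusted p = 0.00476). T1792tg/tg had 5 higher and none lower (6.1% and 6.45%), with Il4ra at 255 CPM (0.41 ± 0.10, adjusted p = 0.0036) and Il21r at 230 against 156 CPM (0.56 ± 0.08, adjusted p = 7.13e-06).

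Among 30 genes that regulate Il2 transcription, 13 were higher and 5 lower at 24 h in CD28-/- than in wt (median 0.25, against -0.03, with 23.7% and 27.8% of tested genes). Nfatc1, an NFAT factor, was higher (390 against 216 CPM, 0.86 ± 0.08, adjusted p = 1.43e-11), as were Ikzf1, which encodes the repressor Ikaros (903 against 570 CPM, 0.66 ± 0.07, adjusted p = 1.15e-09), and the AP-1 gene Fosb (7.98 against 1.29 CPM, 2.63 ± 0.31, adjusted p = 7.8e-09). Among the 5 lower were Ikzf2 (2.35 against 7.47 CPM, -1.67 ± 0.19, adjusted p = 5.79e-09), Batf (26.9 against 56.9 CPM, -1.08 ± 0.14, adjusted p = 9.3e-08) and Hmga1 (83.8 against 123 CPM, -0.56 ± 0.09, adjusted p = 3.57e-06). The list holds both activators and repressors, so its counts do not give a direction for Il2 transcription. In rescue against CD28-/- 4 were higher and 6 lower (9.52% and 8.86% of tested genes), with Ikzf1 lower (-0.38 ± 0.08, adjusted p = 0.000511) and Hmga1, a chromatin protein, higher (0.76 ± 0.10, adjusted p = 3.75e-07). In T1792tg/tg 11 were higher and 1 lower than in wt (6.1% and 6.45%), Nfkb1 among them (1195 against 819 CPM, 0.55 ± 0.06, adjusted p = 2.72e-07). In T1792delta/delta 3 were higher and 2 lower (7.77% and 8.47%), with Hmga1 lower (76.6 against 123 CPM, -0.69 ± 0.09, adjusted p = 1.48e-06) and Rel higher (0.58 ± 0.14, adjusted p = 0.00323).

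Of 16 genes for proteins that bind AU-rich or stem-loop elements or otherwise act on cytokine mRNA, 7 were higher and 8 lower in CD28-/- than in wt at 24 h (23.7% and 27.8% of tested genes). Zfp36l1, which promotes decay of AU-rich transcripts, was at 243 against 168 CPM (0.54 ± 0.07, adjusted p = 7.48e-08), and Ilf2, an RNA-binding protein first described on the Il2 promoter, at 156 against 245 CPM (-0.65 ± 0.05, adjusted p = 1.38e-13). Zfp36l1 was lower with the transgene, both in T1792tg/tg against wt (124 against 168 CPM, -0.44 ± 0.07, adjusted p = 4.35e-05) and in rescue against CD28-/- (179 against 243 CPM, -0.44 ± 0.08, adjusted p = 5.89e-05). The counts over the list were 1 higher and 3 lower in T1792tg/tg (6.1% and 6.45% of tested genes), 2 and 5 in rescue against CD28-/- (9.52% and 8.86%), and none higher and 2 lower in T1792delta/delta (7.77% and 8.47%).

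**Figure D4:**
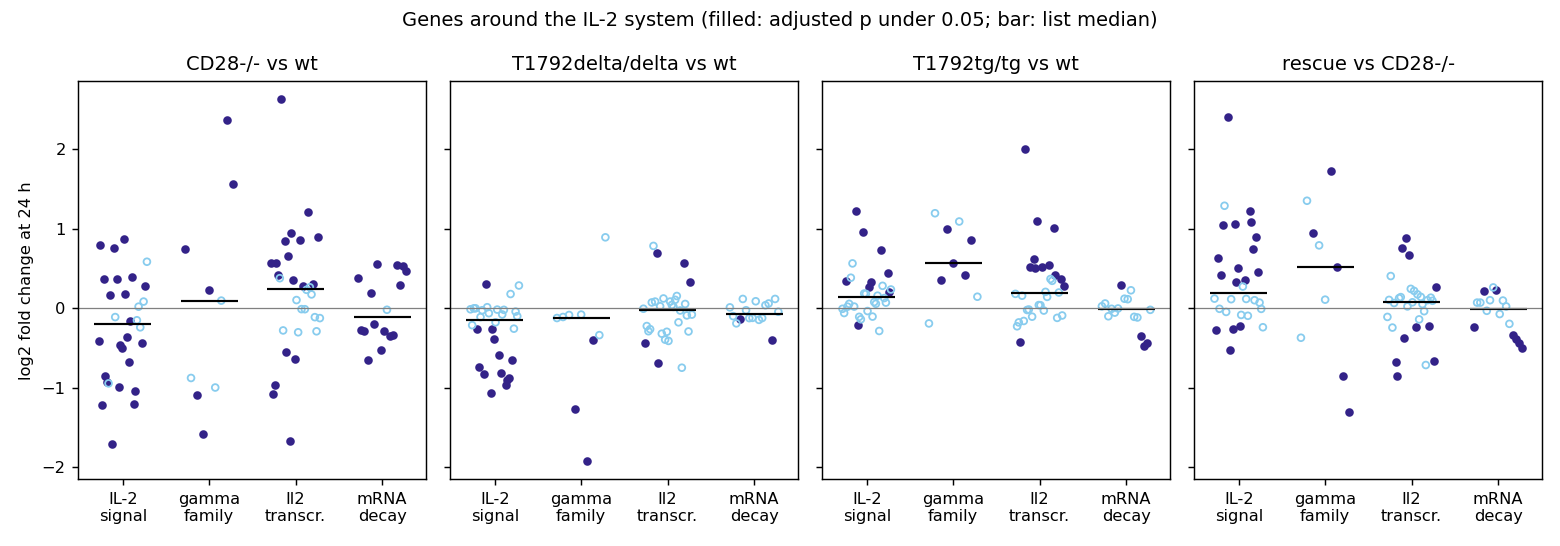
Log2 fold change at 24 h of each tested gene of 4 lists (IL-2 signalling, gamma chain family, Il2 transcription and mRNA decay) in 4 comparisons, filled where the adjusted p is under 0.05, with a bar at the list median. In IL-2 signalling, a list that also holds feedback inhibitors, 12 genes are lower in T1792delta/delta and 13 higher in rescue against CD28-/-. The Il2 transcription list, which holds activators and repressors, has 13 higher and 5 lower genes in CD28-/- against wt.

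Genes whose levels ran most like each member over the 5 groups at 24 h were found by the root mean square difference of centred log2 levels over 9503 genes, as a description. Nearest to Il2 was Acsl6, an acyl-CoA synthetase gene, at 0.194, with 7.1 ± 1.16 CPM in wt, 10.8 ± 2.28 in T1792tg/tg, 0.399 ± 0.18 in CD28-/- and 0.799 ± 0.0594 in rescue. Sh2d1a, which encodes the adaptor SAP, came next at 0.58, with 64.3 ± 6.27 CPM in wt, 7.05 ± 0.577 in CD28-/- and 9.19 ± 1.61 in rescue, and Cth followed at 0.599. Nearest to Il2ra were AW112010 (0.07), Lgals3bp (0.093) and Rnf19b (0.108). Rnf19b was at 71.1 ± 11.3 CPM in wt, 42.6 ± 5.21 in T1792delta/delta, 123 ± 20.3 in T1792tg/tg and 114 ± 18.1 in rescue. Nearest to Il2rb were Tspan4 (0.039), Lrrc59 (0.054) and Slfn8 (0.059), and nearest to Il2rg Cyhr1 (0.013), Arih2 (0.016) and Stard3 (0.021).

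Over all 10 groups, with 10135 genes compared, the nearest genes were others except for Cyhr1. They were Utf1 (1.23), Ak4 (1.28) and Dnph1 (1.29) for Il2, Ncs1 (0.537), Tg (0.562) and Mcm10 (0.571) for Il2ra, Zc3h7b (0.168), Atf5 (0.186) and Tapbpl (0.194) for Il2rb, and Hsdl2 (0.05), Cyhr1 (0.051) and Stx16 (0.067) for Il2rg. These differences are not scaled to a gene's range over the groups, which was widest for Il2 among the members. Their sizes therefore cannot be compared between members.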

How the data were processed

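RNA was read as stranded single-end libraries of 76 nt, per the labels' protocols. The authors deposited 1 table of whole-number read counts per gene, not normalized, with a length per gene. The submitters' processing notes name FastQC 0.11.5, STAR 2.5.2a, R 3.5, edgeR 3.24.3 and mm10. For the counting tool and the gene annotation, the source is "not given in the sources used here". RefSeq names matched 23968 of 24028 identifiers, and the others took 0.0749% of counts.

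Counts were tested with edgeR 4.0.16 in R 4.3.3 (two-sided quasi-likelihood test, TMM, filterByExpr, all 38 libraries, a coefficient per group, 24 comparisons), checked on simulated data. The members and gene lists were chosen with earlier results of these data known. The text names the 4 members, Foxp3, genes among the 4 called with the smallest p of each list and main comparison, and the 3 genes most like each member (centred mean log2 CPM with prior count 2, at least 5 CPM in a group). Values of a gene so named may be given in a further comparison. Ncr1 and Cd8a fall outside this rule, and Eomes is shown with them, chosen after their values were seen. B cell (10 genes) and myeloid (14) markers summed to 154 to 658 and 355 to 1166 CPM in naive libraries, and 38 to 141 and 53.4 to 141 CPM at 24 h. The 8 naive T cell markers summed to 6867 to 7496 CPM in naive wt and 6298 to 7142 in CD28-/-. In naive T1792delta/delta they summed to 7291 to 8372 CPM, in T1792tg/tg to 4704 to 5764 and in rescue to 5189 to 5928. T1792tg/tg and rescue lay below the other groups without overlap. Against naive wt, T1792tg/tg had 5 lower (12.6% of tested genes) and rescue 3 (26.1% called in either direction), with none higher in either. The part of this in the Il2rb levels was not tested. At 24 h the 8 markers summed to 1169 to 2000 CPM. Alternatives were RLE scaling, DESeq2 1.42.0, other filters, fits on the compared groups, replicate blocks, a sex term and leaving out libraries. Protein sequences were not used here.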

Additional observations from a re-analysis of the deposited data

Results flagged for a closer look

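The responses to stimulation of 2 members differed between CD28-/- and wt by a test of the difference itself (edgeR's quasi-likelihood test, Benjamini-Hochberg adjusted). For Il2ra the log2 response was larger in CD28-/- by 1.328 ± 0.153 (adjusted p = 1.44e-08), and without naive CD28-/- 1 and naive rescue 2 the difference was 1.249. For Il2rb the difference of CD28-/- minus wt was -0.585 ± 0.133 (adjusted p = 0.000496), and -0.546 without those libraries (adjusted p = 0.00159). Of all tested genes, 43.3% were called in this comparison. In the levels of the 4 members, no single library stood apart from its group by Dixon's criterion. The 32 sets examined held 4 libraries each, so the rescue groups of 3 were left out.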

How the results depend on the processing

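Of 96 results on the 4 members, 68 kept direction and side of the threshold under every alternative run, as did 1602 of 1681 alternative values. The cause of the changes below was not tested. RLE scaling changed no member's call and moved 5 group levels per length by more than their SD, none of them past 1.5 times. Il2 in T1792tg/tg against wt at 24 h lost its call with no filter (0.462, adjusted p = 0.0549), a sex term (0.425, 0.116) and DESeq2 (0.476, 0.147). Il2ra in CD28-/- against wt at 24 h lost it with a filter at 5 CPM (-0.215, 0.0559). Il2ra in rescue against T1792tg/tg at 24 h, near 0, changed sign with no filter (0.002), the 5 CPM filter (0.014) and the compared groups alone (0.027). The naive Il2rb difference of rescue and T1792tg/tg lost its call with a sex term (0.255, 0.149), the compared groups alone (0.332, 0.204) and without naive CD28-/- 1 and naive rescue 2 (0.306, 0.0986). Without those 2 libraries, signs also changed for Il2 (-0.011) and Il2rg (-0.015) in naive rescue against CD28-/- and for the Il2 response difference of those genotypes (1.062).

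With the compared groups alone, calls were lost for naive Il2ra in T1792tg/tg against wt (0.373, 0.0625) and rescue against CD28-/- (0.566, 0.0587). Calls were gained for Il2rb in rescue against wt at 24 h (0.226, 0.0236), the transgene effect without against with CD28 for Il2ra (0.207, 0.0296) and Il2rb (0.353, 0.0304), and the Il2 response difference of CD28-/- and wt (-2.607, 0.0311). DESeq2 gained the last (-2.515, 0.00474), naive Il2ra in T1792delta/delta against wt (-0.313, 0.0481) and its response difference (-0.41, 0.0342).

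Pairing by replicate number was partial: of 19 same-numbered pairs of naive and 24 h libraries, 14 correlated over 0.1 and 16 correlated best with their own number. All wt (0.122 to 0.342) and T1792delta/delta pairs (0.21 to 0.313) did both, while CD28-/- (0.025 to 0.114), T1792tg/tg (0.034 to 0.255) and rescue (0.03 to 0.171) had pairs under 0.1. Same-numbered naive and 24 h libraries were of the same sex throughout, and the labels do not say that a number marks 1 mouse. With the replicate block over all groups, 95 of 96 values kept their call and Il2rg gained one in naive rescue against wt (0.21, 0.0345). With the replicate block within genotype, 35 of 36 did and the Il2 response difference of CD28-/- and wt gained one (-2.593, 0.0481).

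Leaving out 1 library at a time, log2 fold changes at 24 h ran from -0.245 to -0.221 for Il2ra in CD28-/- against wt, 0.352 to 0.563, 0.279 to 0.389 and -0.068 to 0.043 for Il2, Il2rb and Il2rg in T1792tg/tg against wt, 0.176 to 0.299 for Il2rg in rescue against wt, and -0.024 to 0.026 and 0.206 to 0.291 for Il2ra and Il2rg in rescue against T1792tg/tg. In naive cells they ran from -0.433 to -0.215 and -0.025 to 0.077 for Il2ra and Il2rg in T1792delta/delta against wt, -0.058 to 0.576 and 0.238 to 0.443 for Il2 and Il2ra in T1792tg/tg against wt, -2.167 to 0.024 and 0.133 to 0.234 for Il2 and Il2rg in rescue against wt, -0.285 to 1.906 and -0.014 to 0.028 for Il2 and Il2rg in rescue against CD28-/-, and 0.221 to 0.491 for Il2rb in rescue against T1792tg/tg. Response differences from wt ran from 0.129 to 0.256 for Il2rg in CD28-/-, -0.19 to 0.69, -0.511 to -0.294 and -0.445 to -0.272 for Il2, Il2ra and Il2rb in T1792delta/delta, and -0.11 to 0.531 for Il2 in T1792tg/tg. That of rescue from CD28-/- ran from -0.855 to 1.336 for Il2, and the transgene effect for Il2 from 0.256 to 0.848. Calls were gained for the Il2 transgene effect without rescue 1 at 24 h, naive Il2ra in T1792delta/delta without its library 1 or 3, its Il2ra response difference without its naive library 2 or 4 and its Il2rb response difference without its 24 h library 3, and for Il2rg in naive rescue against wt without wt 1 and in the CD28-/- response difference without wt 4 at 24 h.

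The number of genes called over the whole table moved more. With the compared groups alone it went from 2015 to 956 in naive CD28-/- against wt, 3158 to 1913 in T1792tg/tg, 3566 to 1846 in rescue, 2288 to 802 in rescue against CD28-/- and 1077 to 260 in rescue against T1792tg/tg. At 24 h it went from 1713 to 2631 in T1792tg/tg against wt, 2510 to 3851 in rescue against CD28-/-, and 288 to 929 for the transgene effect (518 with DESeq2, 119 to 447 leaving out 1 library). Leaving out 1 library took it to 1300 (without rescue 2) and 1595 (rescue 3) in rescue against CD28-/- at 24 h, 962 (T1792tg/tg 4) and 1092 (T1792tg/tg 3 or wt 1) in T1792tg/tg against wt, and from 2216 to 1388 (T1792delta/delta 1) in T1792delta/delta against wt. In naive cells it took it to 1170 (CD28-/- 4), 1307 (wt 2) and 1331 (wt 3) in CD28-/- against wt, from 708 to 439 (T1792delta/delta 3) and 469 (wt 3) in T1792delta/delta against wt, 2105 (rescue 2) in rescue against wt, and 544 (rescue 1) and 709 (rescue 2) in rescue against T1792tg/tg. For response differences it went from 833 to 443 (T1792delta/delta 1 at 24 h) and 467 (naive wt 3) in T1792delta/delta, and from 1747 to 1000 (rescue 2 at 24 h) and 1144 (rescue 3 at 24 h) in rescue against CD28-/-. Naive rescue against wt had 2334 without CD28-/- 1 and rescue 2. Naive Il2, at 0 to 9 reads a library, limits every Il2 response.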

Other observations

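Il2rg lies on chromosome X, so its levels are given by the sex of the mouse, read from Xist and Y-linked transcripts, in the genotypes that held both. At 24 h the 2 male T1792delta/delta libraries held 526 to 570 CPM and the 2 female ones 561 to 572 CPM, and in naive cells 823 to 857 and 861 to 928 CPM. In T1792tg/tg the 3 male libraries held 586 to 631 CPM at 24 h and the 1 female library 531 CPM. In wt the 3 female libraries held 553 to 604 CPM at 24 h and the 1 male library 691 CPM. No test was made within these small sets. All CD28-/- and rescue libraries were female, so sex and genotype cannot be fully told apart in comparisons of those groups with the others.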
